A study of Mus musculus with 3 samples.

Results

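The genes described here are 8 genes of the Schwann cell lineage, taken by mouse symbol from the RNA-seq of melan-a cells. They are *Mbp*, *Pmp22*, *Cdh19*, *Erbb3*, *Ngfr*, *Egr2*, *Fabp7* and *Gap43*, and all 8 were found among the 22698 Ensembl genes of the deposited values. Melan-a is an immortalized line of mouse melanocytes on the C57BL/6J background, labelled as derived from Ink4a-ARF-/- mice. The cells received no treatment and were grown with 10% fetal bovine serum, 200 nM of the phorbol ester TPA and 200 pM cholera toxin. The 3 samples are biological replicates of this 1 line, labelled 1, 3 and 4, so there was no other cell type or condition to compare with. Levels are in FPKM, reads scaled to the length of the gene (in kilobases) and to the size of the library, which allows genes to be set side by side.

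Schwann cells are the glia of peripheral nerves. They arise from the neural crest, as melanocytes do, and the precursors that travel along growing nerves can give rise to melanocytes of the skin. A Schwann cell precursor depends on neuregulin from the axon, which it receives through the ERBB3 and ERBB2 receptor pair, and it carries NGFR, cadherin 19, GAP43 and the fatty acid binding protein FABP7. A Schwann cell that goes on to myelinate turns on the transcription factor EGR2 together with SOX10. The genes of compact myelin then follow, among them those for MBP and PMP22.

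The 8 genes spread over nearly the whole range of expression in melan-a cells. *Pmp22* stood highest at 296 ± 19 FPKM (SD, n = 3), followed by *Erbb3* at 72.9 ± 4.6, *Ngfr* at 50 ± 11 and *Cdh19* at 27.9 ± 13. *Mbp* at 1.76 ± 0.17 FPKM, *Fabp7* at 1.46 ± 0.45 and *Egr2* at 0.533 ± 0.13 were low. *Gap43* could not be told from 0. In all, 5 of the 8 genes reached 1 FPKM in every replicate (*Pmp22*, *Erbb3*, *Ngfr*, *Cdh19* and *Mbp*), whereas 44.1% of all genes did. The level of 3 reads was reached in every replicate by 7 of the 8, against 57.7% of the genes with an annotated length. With 8 genes chosen by hand, these shares are a description and were not tested. The low myelin genes were not at 0, since *Mbp* rested on about 790, 769 and 889 reads in replicates 1, 3 and 4 and *Egr2* on about 119, 63 and 126.

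**Figure D1:**
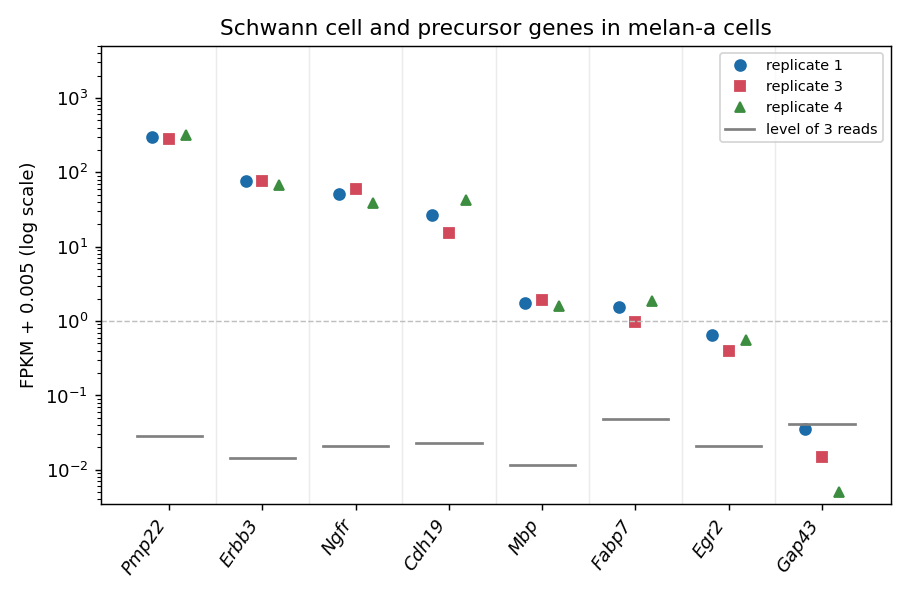
The vertical axis gives the level of each gene as FPKM plus 0.005 on a log scale, with 1 point per replicate (circle, square and triangle for replicates 1, 3 and 4). The grey bars mark the level of 3 reads on each gene, averaged over the replicates, and the dashed line marks 1 FPKM. Among the 8 genes, *Gap43* alone has its points below the grey bar.

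The reads behind a level were estimated from the scaled library size of each replicate. The files hold no counts, but the low values of short genes with a single transcript fell on whole numbers of reads when the scaled libraries were taken as 53700000, 47400000 and 66100000 reads for replicates 1, 3 and 4. Deposited values are rounded to 0.01 FPKM, so that a value listed as 0 means a level below 0.005 FPKM. No exons of other annotated genes overlapped the exons of any of the 8 genes, on either strand.

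Sequences upstream of the start sites are shown for a gene of high and a gene of low level with a match to the TFAP2 motif searched here. A gene of each kind without a match to that motif is also shown. TFAP2A is the transcription factor at the center of the study, and *Tfap2a* itself stood at 37.2 ± 1.5 FPKM (SD, n = 3). RefSeq promoter windows of build GRCm38.p6 were at hand for 4 of the 8 genes, *Pmp22*, *Ngfr*, *Egr2* and *Fabp7*, with 11 windows in all, and the 250 bases before the start site were searched on both strands. The motifs were GCCNNNGGC for TFAP2, which reads the same on both strands, ACAAAG or ACAATG for SOX factors, and CATGTG or CACGTG for the E-box of MITF and related factors. The paper gives the TFAP2A consensus as GCCNNNGG, a shorter site without the last C. The search here was therefore stricter, and the shorter site is not marked on its own. No matches overlapped in the sequences printed. Each sequence is written 5′ to 3′ on the strand of its gene, with matches in capitals.
*Pmp22*, window 3 of 4, chr11:63132319-63132568, plus strand: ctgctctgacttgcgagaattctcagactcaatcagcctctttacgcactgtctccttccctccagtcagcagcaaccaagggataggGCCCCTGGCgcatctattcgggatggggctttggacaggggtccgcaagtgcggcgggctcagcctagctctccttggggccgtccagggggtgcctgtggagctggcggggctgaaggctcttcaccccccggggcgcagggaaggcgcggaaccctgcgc
*Ngfr*, chr11:95587699-95587948, minus strand: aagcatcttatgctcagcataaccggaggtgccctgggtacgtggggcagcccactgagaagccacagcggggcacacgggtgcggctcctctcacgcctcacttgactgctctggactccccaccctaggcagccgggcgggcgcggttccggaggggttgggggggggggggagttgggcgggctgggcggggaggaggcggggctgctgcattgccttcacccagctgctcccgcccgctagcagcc
*Egr2*, window 1 of 5, chr10:67535249-67535498, plus strand: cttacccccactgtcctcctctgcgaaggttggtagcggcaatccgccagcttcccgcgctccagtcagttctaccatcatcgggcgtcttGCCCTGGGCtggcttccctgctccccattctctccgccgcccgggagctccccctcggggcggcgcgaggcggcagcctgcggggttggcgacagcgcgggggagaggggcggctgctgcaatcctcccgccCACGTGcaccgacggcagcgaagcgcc
*Fabp7*, chr10:57784673-57784922, plus strand: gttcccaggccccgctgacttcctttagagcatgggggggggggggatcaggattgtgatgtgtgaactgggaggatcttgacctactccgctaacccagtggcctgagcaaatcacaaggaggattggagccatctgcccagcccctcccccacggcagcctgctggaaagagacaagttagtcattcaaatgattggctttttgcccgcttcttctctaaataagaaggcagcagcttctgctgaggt
The *Pmp22* window held GCCCCTGGC, which begins 162 bases before the start site, and the *Egr2* window held GCCCTGGGC at 159 bases and CACGTG at 27 bases. The *Ngfr* and *Fabp7* windows held none of the 3 motifs as searched. Both hold the shorter site of the paper, for instance GCCCTGGG in *Ngfr* and, read on the other strand, CCCACGGC in *Fabp7*. Of the 11 windows, 3 held the TFAP2 motif (2 of *Pmp22* and 1 of *Egr2*), 4 held an E-box, all of *Egr2*, and 0 held a SOX motif. Of these 4, 3 are overlapping windows that hold the same CATGTG, so that they are not separate matches. Among 32851 windows of the same length, 13.7% held the TFAP2 motif, 25.2% a SOX motif and 17.6% an E-box. The shorter TFAP2A site was not counted over the 11 windows or these 32851. The GC content of these windows was 64.8% for *Pmp22*, 70.4% for *Ngfr*, 71.2% for *Egr2* and 54.8% for *Fabp7*, beside a median of 52.4%. Thus a match to the longer motif was present in a gene at 296 FPKM and in a gene at 0.533. It was absent in a gene at 50 FPKM, which holds the shorter site. These letters alone do not show whether a factor binds there.

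*Pmp22* encodes a small membrane protein with 4 membrane spans that is a component of compact peripheral myelin and is also made outside nerves. Its place is chromosome 11 of mm9 from 62942484 to 62973049. Replicates 1, 3 and 4 had 294.06, 278.44 and 316.84 FPKM, and 99.3% of all genes had a lower mean. The 3 values lay close together, with a coefficient of variation of 6.5%. Among the melanocyte markers, *Tyrp1*, which encodes a melanin synthesis enzyme, was 10.6 times as high as *Pmp22*. The protein-coding genes nearest to *Pmp22* in level over the 3 replicates were *Tpm4*, *Rhoa* and *Cnn3*, at distances of 0.03, 0.13 and 0.14 on the log2 scale. The annotation lists 5 transcripts of *Pmp22* from several start sites, and a gene-level value does not say which of them was used.

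The closest relatives of *Pmp22* are the epithelial membrane protein genes. *Emp3* had 309.85, 350.08 and 272.76 FPKM in replicates 1, 3 and 4. *Pmp22* was above *Emp3* in replicate 4 only, and the mean log2 ratio of -0.06 ± 0.27 (SD, n = 3) was within the spread between replicates. *Emp1* at 17.2 ± 0.9 FPKM and *Emp2* at 5.97 ± 0.41 were lower than *Pmp22* in 3 of 3 replicates, by ratios of 17.2 and 49.7. The more distant relatives *Perp* and *Tmem47*, at 0.00667 and 0.08 FPKM on average, were near 0, and *Lim2*, a gene of the eye lens, was listed at 0 in every replicate.

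*Mbp* encodes the myelin basic protein, which holds the inner faces of the myelin membrane together. It lies on chromosome 18 of mm9 from 82644538 to 82755029. Its level was 1.75, 1.93 and 1.60 FPKM in replicates 1, 3 and 4, with exact 95% Poisson intervals of 1.63 to 1.88, 1.80 to 2.07 and 1.5 to 1.71 for counting error alone. The replicates were close to each other, and *Pmp22* was 168 times as high by the ratio of means. The gene has 16 annotated transcripts that include the longer Golli forms, which are not particular to myelin. A gene-level value cannot tell these forms apart. Its joined exons measure 8403 bases and its longest transcript 4797, and the level divided by the latter would be 3.08 FPKM.

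*Egr2*, on chromosome 10 of mm9 from 66998223 to 67004936, encodes the zinc finger factor that drives the myelin genes. It had 0.65, 0.39 and 0.56 FPKM in replicates 1, 3 and 4, and replicate 3 was the lowest. Among its family, *Egr1* stood at 23.1 ± 6.1 FPKM and *Egr3* at 7.98 ± 1.5 (SD, n = 3), which are 43.4 and 15.0 times the mean of *Egr2*. Both were above *Egr2* in 3 of 3 replicates. *Egr4* reached 3 reads in no replicate. The corepressor genes *Nab2* at 30.1 ± 5.0 FPKM and *Nab1* at 13.1 ± 1.7, whose products bind EGR factors, were also higher than *Egr2*.

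The other genes of the myelin programme were unequal. Of 17 further genes for myelin proteins and myelin lipids, 8 (47.1%) reached 1 FPKM in every replicate, close to the 44.1% of all genes, and the median of the 17 means was 0.913 FPKM, beside 0.277 for all genes. The highest was *Cadm4*, a cell adhesion gene, at 221 ± 46 FPKM. *Gjc3* (connexin 29) had 25.1 ± 5.4 FPKM, *Cnp* 23.5 ± 2.0 and *Pmp2*, a fatty acid binding protein of myelin, 14.0 ± 2.1.

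By contrast, *Prx* (periaxin) had 3.19 ± 0.47 FPKM, *Mal* 1.2 ± 0.11 and *Mag* 0.913 ± 0.21 (SD, n = 3). *Drp2* and *Gjb1*, both needed in myelinating Schwann cells, had 0.0633 FPKM each on average. *Cldn19* reached 3 reads in no replicate, *Nfasc* and the lipid gene *Fa2h* did so in 2 of 3, and *Ugt8a*, which makes the myelin lipid galactosylceramide, was listed at 0. High and low levels thus occurred side by side among the myelin genes.

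Of 14 other regulators of Schwann cell myelination, 8 (57.1%) reached 1 FPKM in every replicate, beside 44.1% of all genes. Among them were genes that hold Schwann cells back from myelination, *Id2* at 80.7 ± 10 FPKM, *Notch1* at 33.4 ± 4.5 and *Jun* at 23.5 ± 4.1 (SD, n = 3). Other genes of this kind were low, with 0.387 FPKM for *Id4* and 0.0133 for *Sox2* on average. The general factor *Yy1* had 13.5 ± 0.91 FPKM. *Pou3f1*, the POU factor that acts with SOX10 on *Egr2*, had 0.04, 0.01 and 0.01 FPKM, and reached the level of 3 reads in replicate 1 alone. Its relative *Pou3f2* had 0.193 ± 0.015 FPKM. *Nfatc4* was listed at 0, and *Adgrg6*, the receptor that starts myelination, had 0.933 ± 0.042 FPKM.

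*Erbb3* encodes a neuregulin receptor with little kinase activity of its own, which signals through a partner. It lies on chromosome 10 of mm9 from 128004579 to 128026708. It had 75.69, 75.47 and 67.62 FPKM in the same order of replicates, above the mean of 96.1% of all genes. Replicate 4 was the lowest, and the coefficient of variation was 6.3%. The partner *Erbb2* had 14.29, 15.92 and 10.65 FPKM, and *Erbb3* was above it in 3 of 3 replicates by ratios of 5.3, 4.74 and 6.35. The other possible receptors were near 0. *Egfr* had 0.02, 0.02 and 0.03 FPKM, and *Erbb4* was listed at 0 in every replicate.

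The ligands stood far below *Erbb3* and *Erbb2*. *Nrg1*, the neuregulin that axons present to Schwann cells, had 0.01, 0.01 and 0 FPKM and reached 3 reads in no replicate. *Nrg3* was listed at 0, and *Nrg4* had 0, 0.01 and 0.01 FPKM. *Nrg2* was the highest of the 4 neuregulin genes with 0.717 ± 0.12 FPKM (SD, n = 3). The proteases that process neuregulins were present, with 15.1 ± 0.84 FPKM for *Bace1* and 12.1 ± 1.9 for *Adam17*. Of the genes that act after or against the receptors, the adaptor *Shc1* had 79.6 ± 12 FPKM, the adaptor *Grb2* 22.7 ± 1.9, *Rnf41*, whose product marks ERBB3 for degradation, 15.3 ± 1.5, and *Errfi1* and *Lrig1*, which restrain ERBB receptors, 8.35 ± 0.065 and 4.03 ± 0.66. Of the 14 genes of the neuregulin and ERBB list, 8 (57.1%) reached 1 FPKM in every replicate, beside 44.1% of all genes.

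*Ngfr* encodes the receptor that binds all neurotrophins, and in the adult it marks Schwann cells that do not myelinate. It lies on chromosome 11 of mm9 from 95430132 to 95449049. It had 50.73, 60.23 and 39.05 FPKM in replicates 1, 3 and 4, higher than 94.0% of all genes by its mean. Replicate 3 was the highest and replicate 4 the lowest. Of its partners at the membrane, the sortilin family genes *Sort1* and *Sorcs2* were higher than *Ngfr* in 3 of 3 replicates. *Sort1* had 113.37, 112.65 and 91.31 FPKM and *Sorcs2* had 101.59, 117.65 and 76.68.

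In contrast, *Ntrk2* and *Ntrk3*, TRK receptor genes through whose products neurotrophins support neurons, were near 0. *Ntrk2* was listed at 0 in every replicate, and *Ntrk3* had 0.01 FPKM in replicate 3 alone, less than 3 reads. Of the ligand genes reported here, *Ntf5*, which encodes neurotrophin-4, had 0.517 ± 0.059 FPKM, *Bdnf* 0.0567 ± 0.012, and *Ntf3* was listed at 0. These ligand genes stood below *Ngfr* in 3 of 3 replicates. Of the cytoplasmic partners of NGFR, *Maged1* had 209 ± 19 FPKM, *Ngfrap1* 110 ± 0.57 and *Traf6* 3.83 ± 0.44. The coreceptor gene *Rtn4r* had 1.06 ± 0.1 FPKM, whereas *Lingo1* had 0.02 ± 0.01. In this list 7 of 15 genes (46.7%) reached 1 FPKM in every replicate, close to the 44.1% of all genes.

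**Figure D2:**
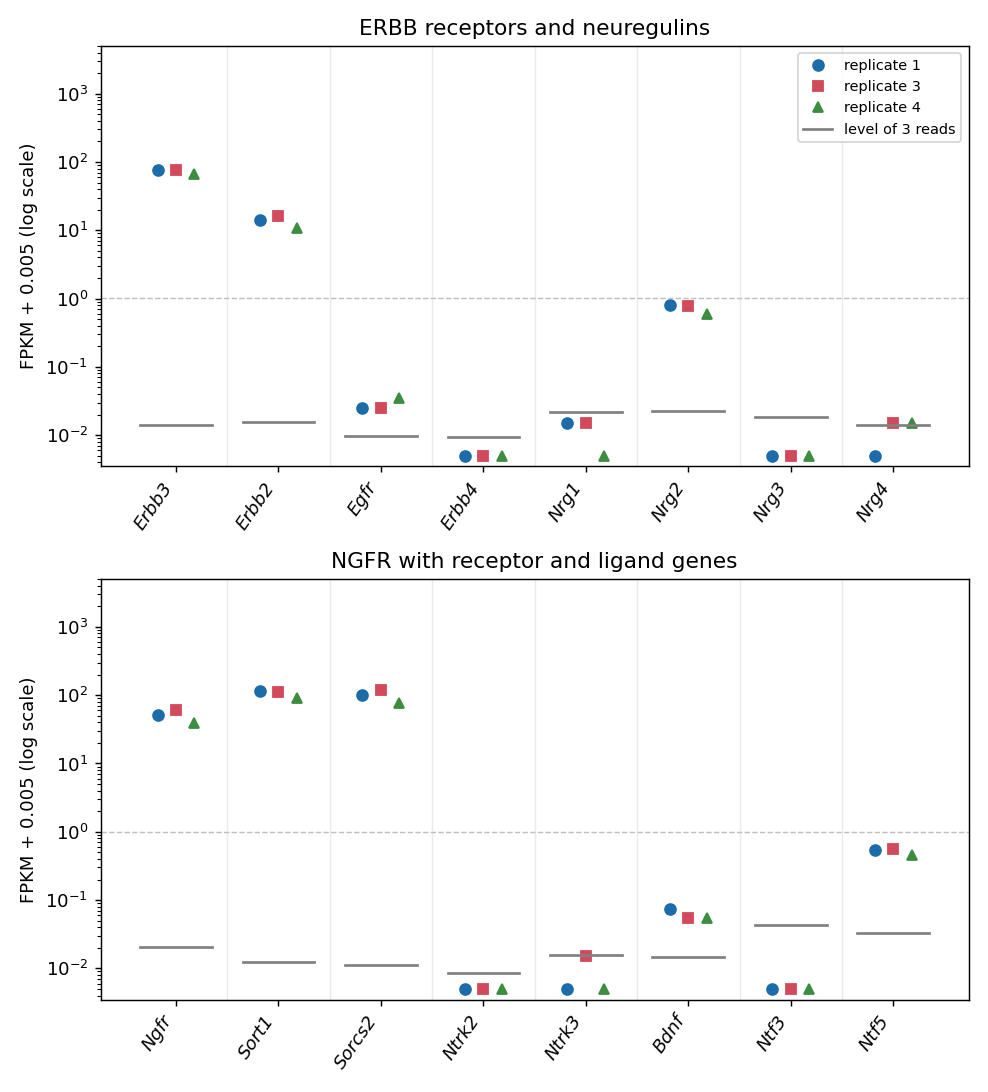
The upper panel plots the ERBB receptors and neuregulins, and the lower panel *Ngfr*, *Sort1* and *Sorcs2* with the receptor genes *Ntrk2* and *Ntrk3* and the ligand genes *Bdnf*, *Ntf3* and *Ntf5*, as FPKM plus 0.005 on a log scale with 1 point per replicate. Grey bars mark the level of 3 reads and the dashed line 1 FPKM. *Erbb3* and *Erbb2* lie above 10 FPKM and the neuregulins below 1, while *Ngfr*, *Sort1* and *Sorcs2* lie above 20 FPKM and *Ntrk2* and *Ntrk3* at or near 0.

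*Cdh19* encodes a type II cadherin that marks Schwann cell precursors. The gene is on chromosome 1 of mm9 from 112785772 to 112873949. The values of replicates 1, 3 and 4 were 26.66, 15.17 and 42.01 FPKM. The highest value was from replicate 4 and the lowest from replicate 3, with a coefficient of variation of 48%, whereas counting error alone would give 1.1% to 2.1%. Its relatives were low. None of 11 other type II cadherin genes reached 1 FPKM in every replicate, beside 44.1% of all genes. In every replicate 7 of them were listed at 0, as were 31.4% of all genes. The 7 include *Cdh7* and *Cdh20*, which also lie on chromosome 1, from 111878904 to 112036734 and from 106665106 to 106892058. The highest of the 11 were *Cdh24* at 0.707 ± 0.071 FPKM and *Cdh10* at 0.46 ± 0.11 (SD, n = 3). *Cdh6*, a cadherin of early neural crest, had 0.01 FPKM in replicate 4 alone. The classical cadherin *Cdh2* had 112 ± 4.1 FPKM, above *Cdh19* in 3 of 3 replicates.

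*Fabp7* encodes the brain-type fatty acid binding protein of radial glia and Schwann cell precursors. It lies on chromosome 10 of mm9 from 57504687 to 57508256. It had 1.56, 0.97 and 1.86 FPKM in replicates 1, 3 and 4, from about 105, 57 and 154 reads. Replicate 3 was the lowest, and the coefficient of variation of 31% was larger than the 8.1% to 13% of counting error. Genes of the same family lay both above and below this level. *Fabp5*, the epidermal form, had 75.3 ± 6.5 FPKM, a ratio of 51.5 to *Fabp7*, and *Pmp2* had a ratio of 9.6. Both were above *Fabp7* in 3 of 3 replicates. Of the 10 relatives listed, 3 (30.0%) reached 1 FPKM in every replicate, beside 44.1% of all genes. Another 4 were at 0 in every replicate, beside 31.4% of all genes, and *Fabp3* had 0.1 ± 0.026 FPKM.

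*Gap43* encodes a membrane protein of growth cones and immature Schwann cells. The gene is on chromosome 16 of mm9 from 42248555 to 42340764. Its values of 0.03, 0.01 and 0 FPKM correspond to about 2, 1 and 0 reads, below the level of 3 reads in each replicate. The upper exact 95% Poisson limits for counting error were 0.0883, 0.0772 and 0.0366 FPKM, so that *Gap43* was not detected at this depth. Some other membrane proteins of similar design were present, with 55.7 ± 3.7 FPKM for *Marcks*, 38.2 ± 7.6 for *Marcksl1* and 13.0 ± 2.8 for *Basp1*. *Nrgn*, which was grouped with them, was listed at 0 in every replicate. The microtubule regulator *Stmn1* had 44.0 ± 3.5 FPKM, whereas its neuronal relative *Stmn2* reached 3 reads in no replicate. Of these 6 GAP43-like and growth cone genes, 4 (66.7%) reached 1 FPKM in every replicate, beside 44.1% of all genes.

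The order of the 8 genes was firm except in 2 places. Of the 7 pairs of neighbours by mean level, 5 had the upper gene higher in 3 of 3 replicates and a gap wider than the larger SD. *Ngfr* was above *Cdh19* in replicates 1 and 3, but in replicate 4 *Cdh19* was the higher with 42.01 against 39.05 FPKM. *Mbp* was above *Fabp7* in replicates 1 and 3, but not in replicate 4, with 1.60 against 1.86 FPKM. These pairs could not be placed in an order. An exact paired test over 3 libraries cannot give a p below 0.25, so none is reported.

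A split into precursor genes and myelin genes did not separate high from low levels. The precursor genes *Cdh19*, *Erbb3*, *Ngfr*, *Fabp7* and *Gap43* reached from below the level of 3 reads to 72.9 FPKM, and the myelin genes *Mbp*, *Pmp22* and *Egr2* from 0.533 to 296 FPKM. By the medians of log2(FPKM + 0.1), the precursor genes stood higher by 3.85 in replicate 1, 2.91 in replicate 3 and 4.53 in replicate 4, a mean of 3.76 ± 0.81 (SD, n = 3). By the means over the same genes, the difference was -0.02, since *Pmp22* lies at the top and *Gap43* at the bottom.

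The libraries differed by GC content, and this moved with the values of *Cdh19* and *Ngfr*. Across 10006 genes of at least 1 FPKM, the log2 ratio of replicate 3 to replicate 4 rose with the GC content of the longest coding transcript (Spearman's rho of 0.78, across genes of the same libraries). *Cdh19*, with a GC content of 39.8%, had a log2 ratio of -1.47, and *Ngfr*, with 58.6%, had 0.63. For genes within 2 percentage points of the same GC content the median was -0.60 beside *Cdh19* and 0.42 beside *Ngfr*. The value of *Cdh19* was below the 5th percentile of those genes, -1.31, and that of *Ngfr* was within their range. After the median of genes of like GC content was subtracted in each replicate, the log2 ratio of *Ngfr* to *Cdh19* was 0.92, 1.49 and 0.41 in replicates 1, 3 and 4, in place of 0.93, 1.99 and -0.11. With this adjustment *Ngfr* was above *Cdh19* in 3 of 3 replicates. The SD of log2 FPKM went from 0.74 to 0.44 for *Cdh19* and from 0.31 to 0.10 for *Ngfr*. *Pmp22*, *Erbb3* and *Mbp*, with GC contents of 48.6% to 51.2%, had SDs of 0.09, 0.09 and 0.14 before it, beside a median of 0.16 for all genes. *Fabp7*, with a GC content of 42.6%, was below 1 FPKM in replicate 3 and was left out of the adjustment. It was also lower in replicate 3 than in replicate 4, with 0.97 against 1.86 FPKM. Genes at about 43% had a median log2 ratio of -0.45 between these replicates. The part of GC content in these levels was not tested beyond this adjustment.

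**Figure D3:**
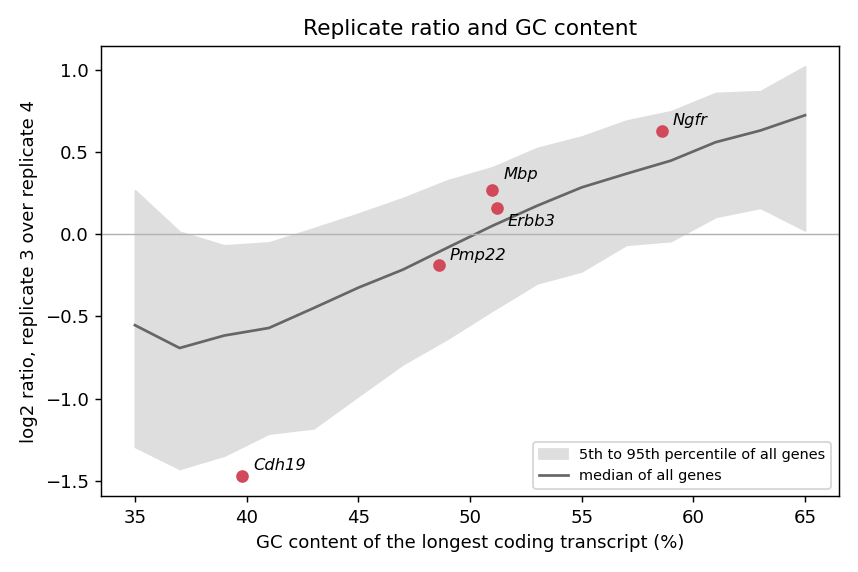
The horizontal axis gives the GC content of the longest coding transcript in percent and the vertical axis the log2 ratio of replicate 3 to replicate 4. The line and the grey band are the median and the 5th to 95th percentile of the genes at 1 FPKM or more, in steps of 2 percentage points, and the red points are the 5 genes of the set that pass this limit. *Cdh19* at -1.47 lies below the band and the others lie within it.

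Of 17 further Schwann precursor genes, 12 (70.6%) reached 1 FPKM in every replicate, beside 44.1% of all genes, and the median of the 17 means was 30.7 FPKM. Among the highest were the neural crest factor *Sox10* at 468 ± 86 FPKM, the adhesion gene *L1cam* at 162 ± 1.8 and *Cdh2*, followed by *S100b* at 70.7 ± 4.0 and *Ncam1* at 36.4 ± 4.9 (SD, n = 3). *Foxd3*, a neural crest factor, had 16.1 ± 3.8 FPKM. On the other hand, *Dhh*, the hedgehog ligand of Schwann cell precursors, had 0.67 ± 0.092 FPKM, *Gfra3* had 0.163 ± 0.047, and *Sox2* had 0.02, 0 and 0.02 FPKM in replicates 1, 3 and 4, about 3 reads where it was above 0. *Sox10* and *Pax3* of this list are also melanocyte markers, so it is not a list of glial genes alone.

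The melanocyte label held in the marker genes. Of 14 melanocyte markers, 13 reached 1 FPKM in every replicate, and the exception was the receptor *Kit* with 0.67, 0.59 and 0.78 FPKM. Their summed level was 5890 to 6740 FPKM. None of 6 oligodendrocyte, 5 astrocyte or 6 keratinocyte markers reached 1 FPKM in every replicate, and their sums were 0.08 to 0.16, 0.73 to 0.93 and 0.41 to 0.75 FPKM. The oligodendrocyte genes *Mog*, *Mobp*, *Olig2* and *Opalin*, the astrocyte gene *Slc1a3* and the keratinocyte genes *Krt1* and *Trp63* were listed at 0. Among 8 fibroblast markers, with a sum of 1.71 to 2.05 FPKM, only *Col1a1* passed with 1.54 ± 0.22, and *Lum* was listed at 0. Of 7 neuron markers, only *Tubb3* passed, at 216 ± 34 FPKM, and *Snap25*, *Syt1*, *Elavl4* and *Nefl* were listed at 0. The 7 immune and endothelial markers summed to 0.79 to 1.64 FPKM, and *Ptprc* and *Cd3e* were listed at 0. *Gfap*, which astrocytes share with Schwann cells that do not myelinate, had 0.68 ± 0.079 FPKM. In bulk RNA, a low level such as that of *Mbp* or *Egr2* cannot be told apart between a few cells with much RNA and many cells with little.

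**Figure D4:**
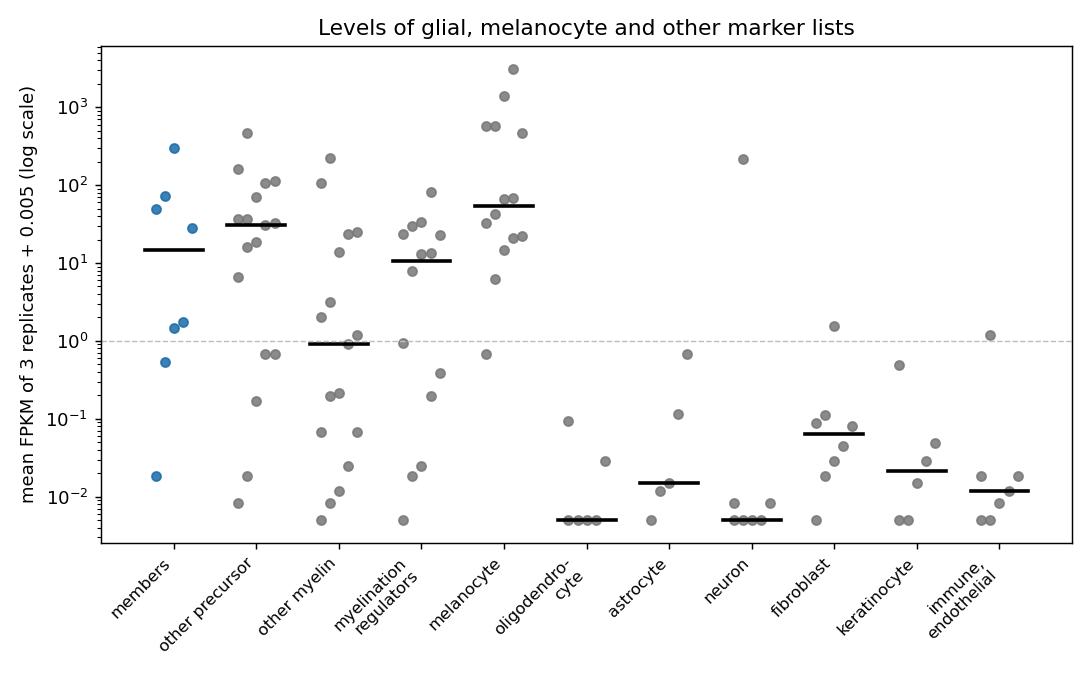
Each point is a gene, placed by its mean FPKM over the 3 replicates plus 0.005 on a log scale, for the 8 genes (blue) and for lists of other precursor, myelin and marker genes (grey). Black bars are the list medians and the dashed line marks 1 FPKM. The median of the 8 genes is 14.9 FPKM, between those of the other precursor genes at 30.7 and the other myelin genes at 0.913, and the lists of other cell types have medians below 0.1 FPKM.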

How the data were processed

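Untreated melan-a cells were profiled by RNA-seq in 3 biological replicates, with 3 sequencing lanes each. The authors prepared stranded mRNA libraries, trimmed 10 bases from each read, aligned to mm9 with STAR 2.3.0e, took out reads from rRNA genes and used HTSeq 0.5.3p3 with Ensembl release 67 to count the rest. The deposited FPKM values are labelled as TMM scaled, and edgeR is named in the submitters' processing notes. How counts became FPKM, and the strand setting, are not given in the sources used here.

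Lengths, symbols and positions were those of GENCODE M1 (Ensembl release 65, mm9), which lacks 374 of the 22698 genes. Library sizes were estimated from 49 to 62 single-transcript genes of at most 400 bases per replicate, with a mean distance from whole reads of 0.035 to 0.054. Reads were the FPKM times joined exon length and library size. Intervals and the floor of 3 reads cover counting error only. These scaled library sizes were 47400000 to 66100000 reads, which need not equal the numbers of reads sequenced.

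With 1 condition no test between groups was made. The genes and lists were chosen with earlier results of these data known, and 3 listed genes were matched by an older name. Named genes are the 8 genes and, of each list, those highest, closest to them in sequence or role, or at 0. The counts cover whole lists, of which some genes are not reported here. Some, such as *Mag* or *Rtn4r*, were named after their values were seen. The estimates and the GC adjustment were tested on simulated data. Alternatives were leaving out each replicate, rescaling, other limits, pseudocounts, summaries and lengths. Python 3.11.15, numpy 2.4.6, pandas 2.3.3, scipy 1.17.1 and matplotlib 3.10.9 were used.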

Additional observations from a re-analysis of the deposited data

How the results depend on the processing

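No paired analysis was possible because the 3 replicates form 1 group and no other group shares their numbers, while ratios of genes were taken within each replicate. Rescaling each replicate to a sum of 1000000 changed the unit and moved the median level of the 8 genes from 14.9 to 40. It moved all 8 single levels, and the length of the longest transcript moved 3 of 8 (*Mbp*, *Pmp22* and *Fabp7*) by more than 1 SD. The log2 difference between precursor and myelin genes of 3.76 became -0.02 with means over the genes in place of medians. It lay between 3.38 and 4.19 with 1 replicate left out. The number of genes at 1 FPKM or more was 4 at a limit of 2 FPKM and 6 at 0.5 FPKM, after rescaling or without replicate 3, in place of 5, while 7 stayed above the floor at 10 reads. Without replicate 4, all 7 neighbouring pairs were ordered in place of 5, an alternative chosen after seeing the data, as was the GC adjustment of *Ngfr* and *Cdh19*. The depth limits *Gap43*, *Nrg1*, *Ntrk3* and the genes listed at 0.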
